A study of Mus musculus with 4 samples.

Results

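ETn insertions are copies of an early transposon family in the mouse genome, and their CpG methylation was followed here as embryonic stem (ES) cells moved from serum to 2i medium with vitamin C. Their places were taken from the mm9 positions listed for 1274 capture probes of the RLTRETN_Mm family. Successive probes on 1 chromosome and strand were taken as an element when their outer span was 2000 to 9500 bp. This gave 438 elements, 299 with a span under 6 kb (median 5094 bp) and 139 over 6 kb (median 7039 bp). Of these, 418 lay on chromosomes of the reference used here, and both probes matched mm9 at 417. At least 5 reads in both media were found at 402 CpG sites of 97 elements in WT and at 245 sites of 65 elements in KO cells, out of 31917 CpGs between the probes. Both media of both genotypes were covered at 221 sites of 60 elements, so most insertions are not described by these libraries.

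The 4 samples were 1 reduced representation bisulfite (RRBS) library for each pair of genotype and medium. WT denotes ES cells with an intact chromosome 4 cluster of KRAB zinc finger protein genes (Chr4-cl), and KO denotes ES cells in which that cluster was deleted with a pair of CRISPR/Cas9 guides. The parental ES cells came from B6;129 mice carrying a cre/ERT insertion at Gt(ROSA)26Sor, and whether each reference insertion is present on both of their strain backgrounds was not tested. Serum denotes standard ES cell medium with 20% FCS and LIF, and 2i denotes growth for 1 week in 2i medium with added vitamin C. With 1 library per condition, the changes below have no replicate check, and intervals cover the counting of reads only. Neighbouring CpGs on a fragment share reads, which makes intervals over several sites too narrow.

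ETn elements are retrotransposons flanked by long terminal repeats (LTRs) and lack the genes needed for their own transposition. They are copied with proteins from the related, longer MusD (ETnERV) elements, which keep gag, pro and pol. Elements were placed here by LTR probes alone, so those called ETn may include MusD copies, above all over 6 kb. ETn and MusD were not told apart, so the length classes may differ in family. Just inside the 5′ LTR lies the primer binding site (PBS), where a cellular tRNA pairs with the RNA to start reverse transcription. KRAB zinc finger proteins bind such sequences and recruit KAP1, and 2i with vitamin C lowers DNA methylation across the genome of ES cells, by weaker maintenance and more TET activity.

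The start of the internal region, counted from the inner end of the 5′ probe, is shown first because most covered sites of the short elements lay there. The study places the KRAB zinc finger protein gene Zfp961 in a gene cluster other than the deleted Chr4-cl. The PBS oligo that it lists for this gene is given with the starts of the elements, with each CpG in capitals.
PBS-Lys1,2 oligo: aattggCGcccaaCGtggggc
Form A (62 elements): attggCGaaccaaCGCG
Form B (23 elements): attggCGcccaaCGtgg
Form C (10 elements): tttggCGaaccaaCGCG
Form D (10 elements): attggCGaaccaaCGtg
Form E (69 elements): ttttggCGccagaactg
Form F (24 elements): ttttggCGccCGaacag
Forms A to D began mostly short elements, with 58 of 62, 22 of 23, 9 of 10 and 9 of 10 members under 6 kb. Forms E and F were the ones that most often began long elements, at 47 and 14 of them. Form B repeats bases of the oligo, and the others differ from it.

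Longer stretches are shown for 5 elements whose values are given below, each with its place in mm9 and its strand. The first pair kept and lost methylation in the KO cells, the next pair lay within genes and was low in KO 2i, and the last is the element with the most covered sites.
Sult2a2 intron, chr7:14347829-14347988, minus strand: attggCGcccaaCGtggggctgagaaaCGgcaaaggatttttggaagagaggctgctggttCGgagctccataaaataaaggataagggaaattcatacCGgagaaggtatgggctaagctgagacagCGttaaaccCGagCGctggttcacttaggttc
Intergenic, chr8:59285227-59285386, plus strand: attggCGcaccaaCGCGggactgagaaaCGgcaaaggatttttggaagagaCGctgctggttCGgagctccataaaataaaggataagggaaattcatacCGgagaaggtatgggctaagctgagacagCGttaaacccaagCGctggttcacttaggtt
2310016D23Rik intron, chr1:60848176-60848335, minus strand: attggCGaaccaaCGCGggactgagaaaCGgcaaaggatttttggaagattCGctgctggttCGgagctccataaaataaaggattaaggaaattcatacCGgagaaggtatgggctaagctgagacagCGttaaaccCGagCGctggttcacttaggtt
Tex14 intron, chr11:87296187-87296346, minus strand: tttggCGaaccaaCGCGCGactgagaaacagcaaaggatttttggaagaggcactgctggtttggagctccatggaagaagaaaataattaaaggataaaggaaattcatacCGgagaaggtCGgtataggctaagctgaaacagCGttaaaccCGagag
Intergenic, chr3:3426067-3426366, plus strand, from base 1500 of the internal region: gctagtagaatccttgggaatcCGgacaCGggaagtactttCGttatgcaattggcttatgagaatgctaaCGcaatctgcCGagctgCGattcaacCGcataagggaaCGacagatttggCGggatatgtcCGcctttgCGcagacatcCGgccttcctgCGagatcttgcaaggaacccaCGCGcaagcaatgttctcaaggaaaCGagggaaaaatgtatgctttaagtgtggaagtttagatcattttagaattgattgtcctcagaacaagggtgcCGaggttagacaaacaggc

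Summed over CpG sites, read counts were 70149313 and 90649194 in WT serum and WT 2i, and 88376738 and 42684672 in KO serum and KO 2i. All read counts here and for the elements below are such sums, so a read over several CpGs is counted at each. Reads inside the span of the listed Chr4-cl genes (chr4:145100662-147222484) numbered 83433 and 102482 in WT and 815 and 1124 in KO cells, in serum and 2i respectively, as the genotype labels state. Over all CpG sites with at least 5 reads in both media, mean methylation went from 36.5% to 18.1% in WT (782878 sites) and from 33.2% to 13.3% in KO cells (594775 sites).

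ETn elements stayed more methylated in 2i than the genome as a whole, and nearly all of those covered were lower in 2i than in serum. Mean methylation of the 402 sites in WT went from 91.0% in serum to 66.1% in 2i, a change of -24.9 percentage points (counting error ± 1.15). In KO cells the 245 sites went from 85.0% to 54.7%, a change of -30.3 points (± 1.67). The element mean was lower in 2i at 94 of 97 elements in WT and higher at 3, and it was lower at 63 of 65 in KO cells and higher at 1. A site was called as losing methylation when it was at least 20 points lower and its adjusted p was under 0.05, from Fisher's exact test of its read counts with Benjamini-Hochberg adjustment over all sites of the genotype, which compares 2 libraries and not the conditions. By this rule 124 of 402 ETn sites (30.8%) lost methylation in WT, where 27.9% of all tested sites did. In KO cells it was 91 of 245 (37.1%), against 25.3% of all sites. No ETn site was called as gaining methylation, where 0.12% and 0.0361% of all sites were in WT and KO cells.

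Most sites of the genome are low in serum and cannot lose much, so sites methylated at 80% or more in serum were also compared. Of such ETn sites, 99 of 360 (27.5%) were called as losing methylation in WT, and the share was 63.4% over all sites. In KO cells it was 80 of 199 (40.2%), beside 68.2%. Calls depend on read depth, which was not matched between ETn sites and the rest, here or in the shares called elsewhere. Sites that kept 80% or more in 2i made up 142 of the 360 in WT (39.4%, against 10.2% of all such sites) and 55 of the 199 in KO cells (27.6%, against 8.04%). Erased sites, those that fell under 20%, were 7 of 360 in WT (1.94%, against 10.2%) and 11 of 199 in KO cells (5.53%, against 21.6%). The mean in 2i over all sites of this kind was 48.9% for WT and 41.1% for KO cells. No test sets the ETn share against the rest, since sites of 1 element share reads and sequence.

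**Figure D1:**
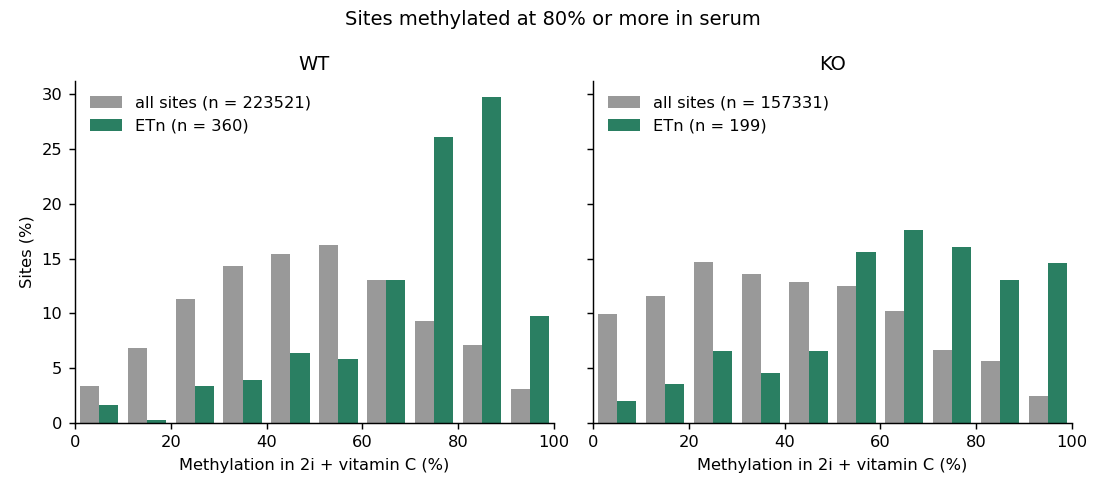
Distribution of methylation in 2i + vitamin C (x axis, percent, bins of 10 points) at sites methylated at 80% or more in serum, as the percent of sites (y axis), for ETn elements (green) and all CpG sites (grey) in WT (left) and KO cells (right). In WT 29.7% of ETn sites lay between 80% and 90% and 7.11% of all sites did, and in KO cells the 2 shares were 13.1% and 5.60%.

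Short elements had a larger fall than long ones in both genotypes. Sites of elements under 6 kb went from 88.8% to 57.2% in WT (193 sites, 50 elements), a change of -31.6 points (± 1.83), and from 75.6% to 36.4% in KO cells (119 sites, 35 elements), a change of -39.2 points (± 2.59). Sites of elements over 6 kb went from 93.0% to 74.3% in WT (209 sites, 47 elements), a change of -18.7 points (± 1.42), and from 93.9% to 72.0% in KO cells (126 sites, 30 elements), a change of -21.8 points (± 2.13). Every short element with sites in WT was lower in 2i (50 of 50), as were 44 of 47 long ones. In KO cells 34 of 35 short and 29 of 30 long elements were lower.

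Over the 60 elements covered in all 4 samples, element means overlapped widely between the length classes. In WT 2i the 32 short elements ranged from 1.42% to 97.3% with a median of 60.7%, and the 28 long ones from 0.794% to 88.2% with a median of 80.7%. In KO 2i the short elements ranged from 0% to 92.0% (median 31.1%) and the long ones from 6.67% to 100% (median 77.2%). Levels of 80% or more were kept in WT 2i by 4 of the 32 short and 15 of the 28 long elements, and in KO 2i by 2 and 10. Levels under 20% were reached in WT 2i by 5 short and 2 long elements, and in KO 2i by 9 and 2. The covered element nearest below the 6 kb split, of 5950 bp, went from 100% to 58.1% in WT and from 100% to 30% in KO cells. It had 1 site, 635 bp inside, with 7 reads in each serum library and 10 in KO 2i. The nearest above, of 6063 bp, had 4 sites 1523 to 1882 bp inside. It went from 100% to 88.2% in WT and from 100% to 96.4% in KO cells. The next above, of 6350 bp (1 site) and 6475 bp (3 sites), were read within the first 500 bp. They went from 100% to 20.8% and from 91.1% to 42.7% in WT, and from 100% to 100% and from 86.7% to 25.8% in KO cells.

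**Figure D2:**
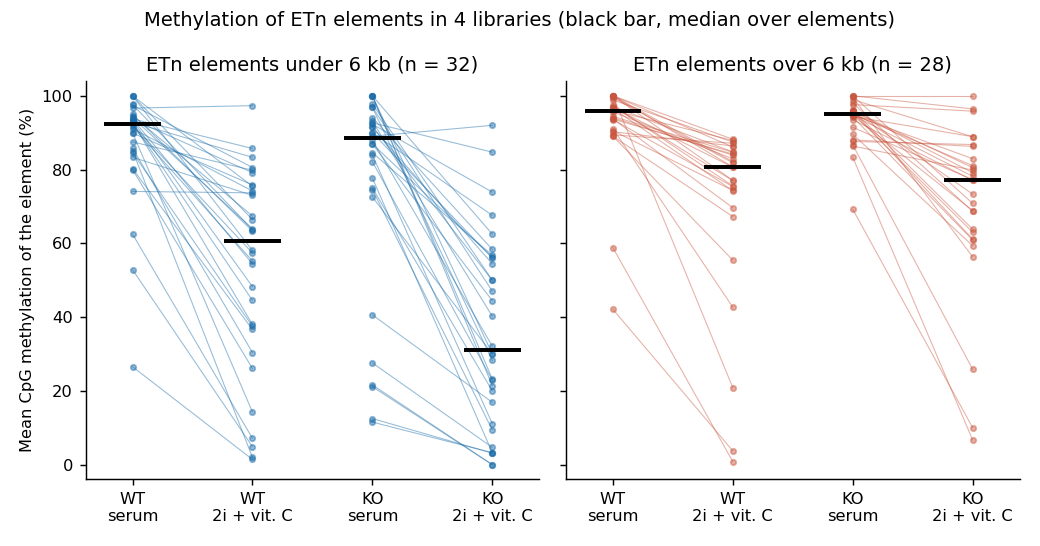
Mean CpG methylation (y axis, percent) of each ETn element in the 4 libraries (x axis), with a line joining serum and 2i + vitamin C within a genotype, for 32 elements under 6 kb (left, blue) and 28 over 6 kb (right, red). Black bars mark medians, which in 2i were 60.7% and 31.1% for short elements in WT and KO cells and 80.7% and 77.2% for long ones.

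Length went together with where in the element the reads lay. RRBS reads start at CCGG, and a CCGG within the first 500 bp of the internal region was present in 177 of 283 short elements (62.5%) and in 39 of 135 long ones (28.9%). Of the 193 WT sites of short elements, 161 fell in these first 500 bp, and of the 209 sites of long elements, 181 fell farther inside. Sites in the first 500 bp changed by -31.6 points in short elements (89.6% to 58.0%, 41 elements) and by -34.9 points in long ones (80.1% to 45.2%, 28 sites of 10 elements) in WT. In KO cells these changes were -40.0 points (78.0% to 38.1%, 108 sites of 30 elements) and -37.4 points (90.2% to 52.9%, 18 sites of 6 elements). At the sites covered in all 4 samples, the changes in the first 500 bp were -29.7 points in short and -38.2 points in long elements in WT (27 and 5 elements) and -38.6 and -41.6 points in KO cells. Farther inside, long elements changed by -16.3 points in WT (95.1% to 78.8%, 38 elements) and by -19.3 points in KO cells (94.5% to 75.2%, 24 elements). Short elements changed there by -31.7 points in WT (85.0% to 53.3%, 32 sites of 10 elements) and by -31.7 points in KO cells (51.2% to 19.6%, 11 sites of 5 elements). Length and position can therefore be told apart only at a few elements.

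The sites at the start could be compared by position, since CpGs recur between copies. Sites 4 to 6 bp inside, whatever the form of the start, were covered in WT in 23 short elements, with a mean of 91.5% in serum and 54.9% in 2i. Sites about 100 bp inside were at 91.8% and 57.2% in 16 short elements. At the first CpG of forms A to D alone, 8 short elements had a mean of 83.6% in WT serum and 61.8% in WT 2i, with a range of 0% to 88.9% in 2i. The SD between elements in WT 2i was 26.4 and 30.8 points at the first pair of positions. At the 7 recurring positions 1.5 to 2.1 kb inside, each mean of the long elements lay between 72.6% and 83.8% in WT 2i, and the SDs between sites were 7.06 to 13.6 points. In KO 2i these means were 66.1% to 80.4% and the SDs 8.68 to 17.5 points. Sites of 1 element lay close together by comparison, but they often share reads and are not independent measures. Over the 44 elements with at least 3 sites in all 4 samples, the median SD of sites within an element was 5.78 points in WT 2i and 9.38 in KO 2i, and the SD between element means was 24.9 and 29.3 points.

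**Figure D3:**
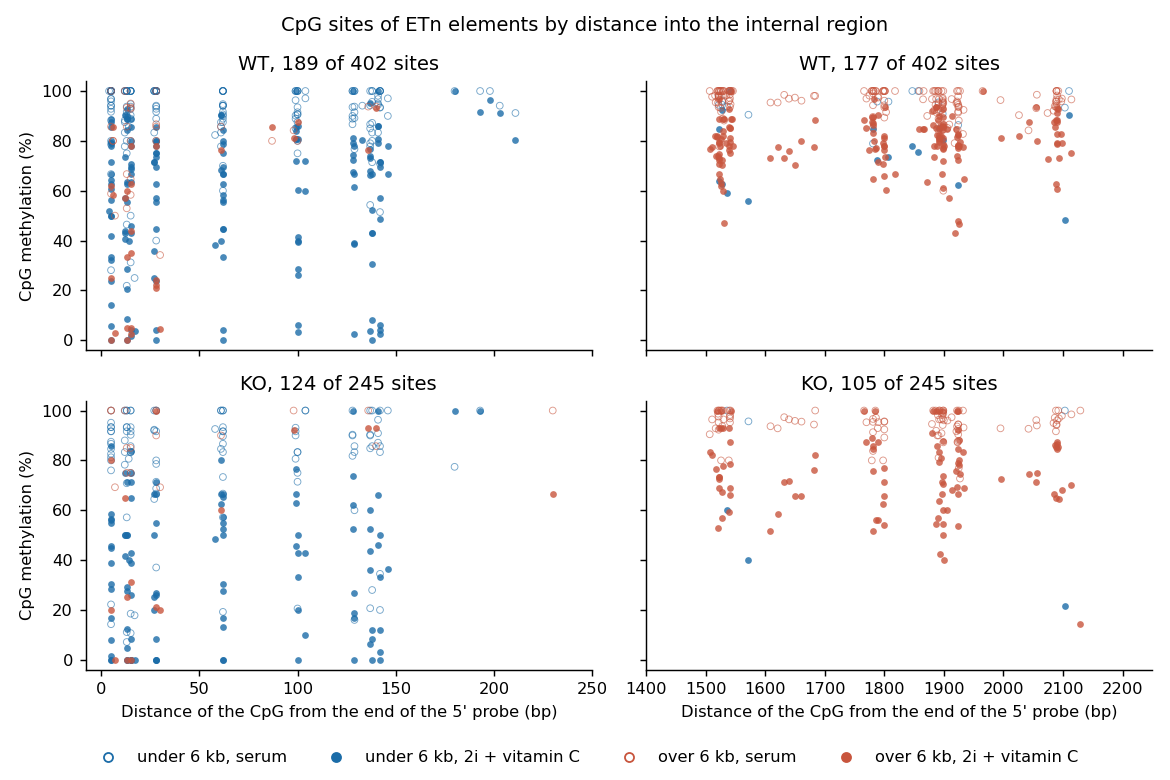
Methylation (y axis, percent) of single CpG sites against their distance in bp from the inner end of the 5′ probe (x axis), in serum (open) and 2i + vitamin C (filled), for elements under 6 kb (blue) and over 6 kb (red), in WT (top) and KO cells (bottom), with 2 windows that hold most sites. Filled points are spread over almost the whole range in the left window. In the right window those of the long elements run from 42.9% to 100% in WT and from 14.3% to 100% in KO cells. Their position means in WT lie between 72.6% and 83.8%.

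Within the first 500 bp, elements with a PBS like the PBS-Lys1,2 oligo kept more methylation in WT 2i than the others. A match was counted where the oligo aligned with at most 15% edits, which is 3, on either strand of the internal region. It was found in 54 of 283 short and 4 of 135 long elements, without any edit in 22, and at a median offset of -1, so that its first base is the last of the LTR. In WT, 73 sites of 17 matching elements went from 92.4% to 74.0%, a change of -18.4 points (± 3.02), and 116 sites of 34 other elements went from 85.5% to 44.8%, a change of -40.7 points (± 2.43). Calls of lost methylation were made at 7 of the 73 sites (9.59%) and at 61 of the 116 (52.6%), beside 27.9% of all tested sites. Among sites at 80% or more in serum they were made at 7 of 67 (10.4%) and 39 of 93 (41.9%), beside 63.4%. In KO cells matching elements went from 89.6% to 55.2% (48 sites, 12 elements), a change of -34.4 points (± 4.09), and the others from 73.8% to 31.0% (78 sites, 24 elements), a change of -42.8 points (± 3.29). There, 19 of 48 sites (39.6%) and 32 of 78 (41.0%) were called, beside 25.3% of all tested sites. Of the KO sites at 80% or more in serum, 18 of 43 (41.9%) and 22 of 47 (46.8%) were called, beside 68.2%.

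Over the 32 elements with sites in this stretch in all 4 samples, WT 2i levels of the 12 matching elements ranged from 44.5% to 97.3% (median 74.9%) and those of the 20 others from 0.794% to 80.6% (median 34.2%). These ranges overlap, and 11 of 12 and 8 of 20 elements lay at 50% or more. Serum medians in WT were 91.9% and 91.4%. In KO 2i the medians were 56.5% (11.1% to 92.0%) and 24.5% (0% to 100%). The 9 matching elements with at most 2 edits went from 89.5% to 75.8% in WT and from 91.1% to 65.6% in KO cells. The 3 with 3 edits went from 95.9% to 76.9% in WT and from 85.0% to 23.8% in KO cells, lower in KO 2i than any of the 9, of which the lowest was at 44.5%.

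The forms of the PBS shown above divided this split further. Of the elements with WT sites in this stretch, all 8 of form B matched the oligo without an edit and all 3 of form D matched with 3 edits, while the 9 of form A and 3 of form C did not match. Form B went from 90.2% to 76.9% in WT (35 sites of 8 elements, 44.5% to 97.5% in 2i) and from 90.5% to 65.8% in KO cells (29 sites of 7 elements). Form A went from 93.2% to 56.0% in WT (37 sites of 9 elements, 2.00% to 82.0% in 2i) and from 58.6% to 28.6% in KO cells (23 sites of 6 elements). Form C was already lower in serum and went from 52.5% to 15% in WT and from 55.6% to 8.76% in KO cells (9 sites of 3 elements each). Form D went from 98.3% to 63.7% in WT (9 sites of 3 elements) and from 82.1% to 22.9% in KO cells (4 sites of 1 element). Its change of -34.6 points in WT, with a match, was close to the -37.2 points of form A, without one, and larger than the -13.3 points of form B. Form E held 1 element without a match, which went from 80% to 85.7% in WT (2 sites), and form F held 0.

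**Figure D4:**
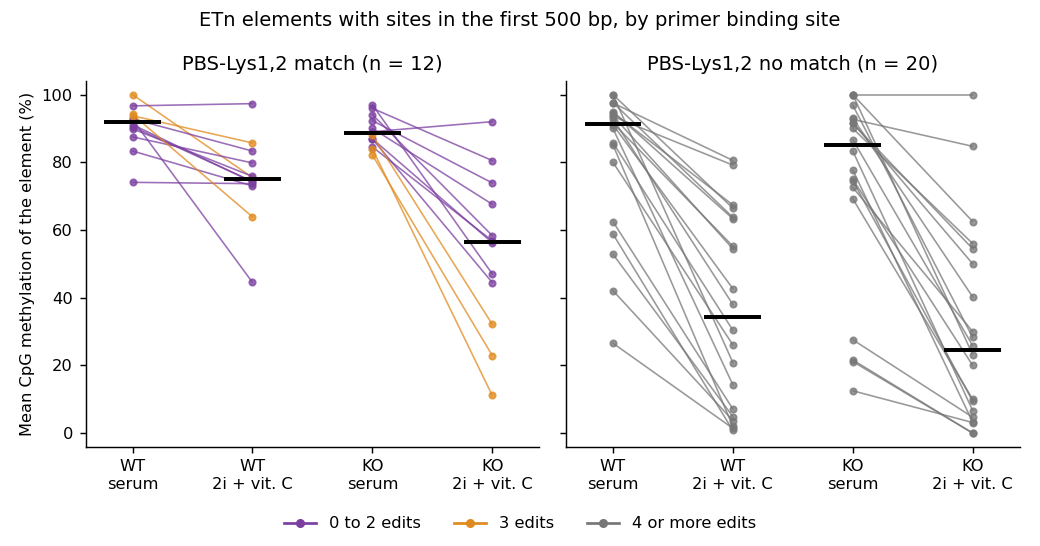
Mean methylation (y axis, percent) of the 32 ETn elements with sites in the first 500 bp of the internal region in the 4 libraries (x axis), by match to the PBS-Lys1,2 oligo: 12 with a match (left, purple for 0 to 2 edits and orange for 3) and 20 without (right, grey). Black bars mark medians, 74.9% and 34.2% in WT 2i, and the 3 orange elements lie at 11.1% to 32.1% in KO 2i.

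Other target sequences of KRAB zinc finger proteins were looked up in the same way. The study places Rex2 and Gm13051, unlike Zfp961, in the deleted Chr4-cl. The Rex2 oligo from MMETn was found in 156 short and 14 long elements, at a median of 167 bp from the start of the short ones. In the first 500 bp, elements with it changed by -31.9 points in WT (91.2% to 59.3%, 146 sites) and those without it by -32.7 points (77.9% to 45.2%, 43 sites). In KO cells the changes were -40.1 and -37.2 points. The Gm13051 oligo from MMETn lay near the 3′ end, at a median of 4171 bp in 157 short elements and 6145.5 bp in 60 long ones, where few sites were covered. The Gm13154 oligo from ETnERV2-int was found in 0 elements at this edit limit, which says only that these letters are not in the searched sequence.

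The element with the most covered sites, an intergenic long element at chr3:3424447-3431520, had 17 sites about 1.5 to 1.9 kb inside. Its methylated reads, summed over the sites, made up 97.0% of 1393 in WT serum (95% Wilson interval 95.9 to 97.8), 77.1% of 1487 in WT 2i (74.9 to 79.1), 95.2% of 1637 in KO serum (94.0 to 96.1) and 69.5% of 984 in KO 2i (66.6 to 72.3). All 17 sites were below 90% in WT 2i, from 70.3% to 88.2%, and losses were called at 8 sites in WT and 12 in KO cells. Further long elements with many sites farther inside stood at 69.6% to 83.9% in WT 2i and 59.0% to 83.7% in KO 2i. They were at chr4:155289491-155296543 (97.2% to 83.9% in WT, 94.7% to 78.3% in KO cells, 8 sites), chr2:15115384-15122466 (93.7% to 69.6%, 94.2% to 59.0%, 4 sites), chr7:140720725-140727700 (94.7% to 82.6%, 94.2% to 83.7%, 7 sites) and chr11:70174802-70181433 (97.1% to 75.6%, 96.2% to 65.7%, 5 sites). An element in an intron of Wac on chromosome 18 went from 95.9% to 88.1% in WT and from 95.2% to 82.9% in KO cells (4 sites). On the X chromosome, the element at chrX:119796408-119803504 went from 100% to 76.5% in WT and from 89.3% to 88.8% in KO cells (8 sites), and its intervals in KO serum and KO 2i overlap (78.5 to 95 and 80 to 94.0).

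The highest level in 2i among short elements with at least 3 sites was at chr7:14342953-14348108, antisense within an intron of Sult2a2, which encodes a sulfotransferase. It was of form B. With reads summed over its sites, it stood at 98.0% of 49 in WT serum, 95.8% of 144 in WT 2i, 88.4% of 147 in KO serum and 92.0% of 25 in KO 2i. Both media overlap in their intervals in both genotypes (89.3 to 99.6 and 91.2 to 98.1 in WT, 82.3 to 92.7 and 75.0 to 97.8 in KO cells). The highest long element, at chr7:12073812-12079874, held 100% in both genotypes in serum (44 and 32 reads). In 2i it held 88.2% of 110 reads in WT and 95.8% of 48 in KO cells.

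The lowest level in 2i of each length class and genotype, among elements with at least 3 sites, was at the start of an element. The short element at chr11:87291561-87296466, antisense in an intron of Tex14, a gene for intercellular bridges of male germ cells, was of form C. It stood at 26.6% of 128 reads in WT serum, 1.42% of 212 reads in WT 2i, 12.5% of 112 reads in KO serum and 3.13% of 32 reads in KO 2i, so it was low in all 4 libraries. The long element at chr8:87683212-87690595 began with the same letters. In serum it stood at 58.8% of 51 reads in WT and 83.3% of 24 in KO cells, and in 2i at 0.794% of 126 and 6.67% of 30. A long element covered in the same stretch but with a PBS-Lys1,2 match, at chr17:54267637-54275678, stood at 90.3% of 72 reads in WT and 96.3% of 54 in KO cells in serum, and at 73.3% of 116 and 78.2% of 101 in 2i.

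The mean of KO cells was at least 40 points below that of WT at 3 of the 32 short elements in serum and at 6 in 2i, and at 0 of the 28 long elements in either medium. Of the elements described one by one, 2 belong to these. At chr8:59285107-59290198 the 5 sites were at 87.5% to 100% in WT serum, 78.6% to 92.9% in WT 2i and 80% to 93.3% in KO serum, and at 26.7% to 38.7% in KO 2i. Of these sites, 0 of 5 were called as losing methylation in WT and 5 of 5 in KO cells. This element is 1 of the 3 with 3 edits to the PBS-Lys1,2 oligo. At chr1:60843369-60848455, antisense in an intron of 2310016D23Rik and of form A, all 65 reads, 13 at each of 5 sites, were methylated in WT serum and 66.7% of 54 were in WT 2i. In KO cells 21.6% of 134 reads were methylated in serum and 0 of 55 in 2i, where each of the 5 sites was covered by the same depth of 11 reads, and 0 of 11 allows a share of up to 27.3%. The gap to WT was thus also present in serum. A short element of form A at chr3:7563242-7568356 changed alike in both genotypes, from 97.6% to 63.8% in WT and from 90.0% to 56.0% in KO cells.

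**Figure D5:**
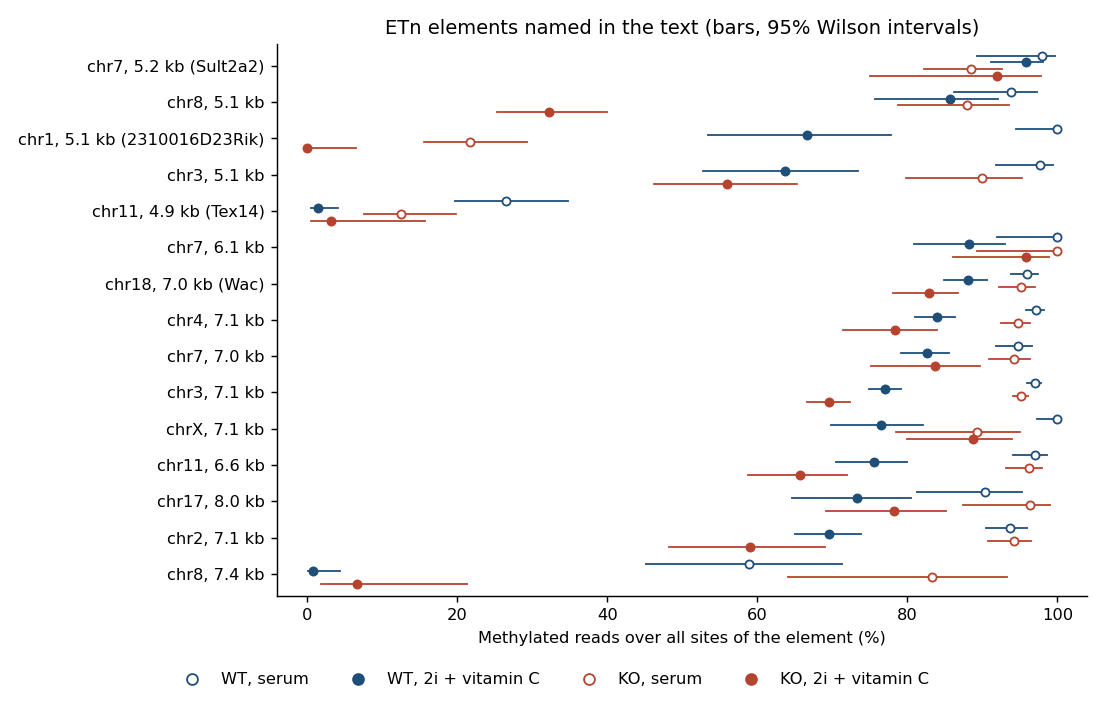
Methylated reads (x axis, percent of all reads over the sites of the element) at the 15 ETn elements described one by one (y axis, chromosome, length and gene where there is one), in serum (open) and 2i + vitamin C (filled) in WT (blue) and KO cells (red), with 95% Wilson intervals as bars, which take reads at neighbouring sites as independent and are too narrow. In KO 2i the short element on chromosome 8 lies at 32.2% and the one in 2310016D23Rik at 0%, while the one in Sult2a2 lies at 92.0%.

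Whether the change between media differed between the genotypes was computed at the 221 sites covered in all 4 samples, as the change in KO minus the change in WT cells. It was -4.35 points (counting error ± 2.15), beside -5.06 points over all 532232 sites of the genome covered in this way and -6.03 points over the 114545 of them at 80% or more in serum in both genotypes. Both genome values lie within the counting error of the ETn value. Short elements differed by -6.71 points (± 3.60, 103 sites) and long ones by -2.29 points (± 2.53, 118 sites). These values did not hold at higher coverage. With at least 20 reads the short elements differed by 11.8 points (17 sites) and the long ones by -10.0 points (54 sites). Beyond 250 bp from either probe the short ones differed by 11.6 points (11 sites of 5 elements). With each of these elements counted once the difference was -3.20 points, and KO cells fell more at 3 of the 5. The 2 others stood at 11.5% and 40.6% in KO serum, and at 84.6% and 80.2% in WT serum. KO cells fell more at 19 of 32 short and 17 of 28 long elements. In the first 500 bp, the difference was -19.3 points (± 5.49) at the 48 sites of 12 elements with a PBS-Lys1,2 match and 0.99 points (± 4.69) at the 59 sites of the 20 others. KO cells fell more at 9 of the 12 and at 10 of the 20. The KO minus WT difference was -1.56 points in serum and -20.9 points in 2i at the matching sites. At the others it was -12.0 and -11.1 points, so KO cells were lower there in both media. With at most 2 edits it was -11.7 points (± 6.20, 9 elements), and at the 3 elements with 3 edits it was -42.2 points (± 11.7), so the value for the match rests in good part on those 3.

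The KO cells were also lower in serum at some short elements. At the 4-sample sites of short elements the KO minus WT difference was -12.9 points in serum and -19.6 points in 2i, and at those of long elements -0.21 and -2.50 points. Elements lower in KO serum numbered 19 of 32 short and 12 of 28 long ones, and in 2i 26 and 17.

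The end of the LTR went together with length. LTR probes ending in gcaaca belonged to 70 short and 80 long elements, and those ending in acaaca to 200 short and 43 long ones. Elements with the gcaaca end went from 93.5% to 76.2% in WT (36 elements) and from 93.9% to 76.1% in KO cells (21 elements), and those with acaaca from 88.7% to 57.6% (54 elements) and from 77.4% to 38.1% (39 elements). Among long elements alone the gcaaca group went from 94.9% to 78.7% in WT and the acaaca group from 85.2% to 57.4%. The gcaaca group had 2 WT sites in the first 500 bp, so the LTR end and the position cannot be told apart either. Elements lay within annotated genes in 78 cases, 60 of them on the opposite strand. Those in introns with sites went from 87.1% to 70.8% in WT (8 elements) and from 66.8% to 48.4% in KO cells (7 elements), and intergenic ones from 91.5% to 65.5% (86 elements) and from 87.1% to 55.5% (56 elements).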

How the data were processed

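Methylation was measured by RRBS with MspI in 4 ES cell libraries. The authors used Trim Galore for trimming and Bismark for alignment (build mm9) and deposited, for each CpG dyad, counts of reads and of methylated reads and the methylated fraction. Per the labels and the methods of the study, no further version is given in the sources used here. The deposited fraction equalled the ratio of the counts to within rounding and was recomputed. The WT serum and KO 2i files were 2 tables joined end to end, and both were used, with 332 and 830 repeated rows dropped. Bismark keeps uniquely placed reads, and how this affects which copies are covered was not tested. Sites needed 5 reads in both media, and methylation was averaged over sites. Counting errors are 95% half-widths, and Wilson intervals cover counting error only. Fisher's exact test was run on all sites with Benjamini-Hochberg adjustment, and was tested on simulated data. No per-sample column was left out. Elements named were the 12 with the most sites in all 4 samples, and the highest and lowest in 2i per length class and genotype among those with at least 3 sites. The members and lists were chosen with earlier results of these data known, and the PBS forms (first 17 bases, those with sites in at least 3 elements in WT or most frequent in a length class) and the edit limit after values had been seen. Sequences came from mm9, oligos from the supplement of the study, and genes from GENCODE M1. Python 3.11.15, numpy 2.4.6, pandas 2.3.3, scipy 1.17.1, pysam 0.24.0 and edlib were used.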

Additional observations from a re-analysis of the deposited data

How the results depend on the processing

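Of 74 values recomputed with 1 choice altered, 51 kept their direction and moved by less than the counting error (counts, by less than 1.5 times). For short elements in WT, the change was -33.5 points with at least 20 reads, -35.2 with reads pooled and -34.1 with each element counted once. For long elements in WT it was -17.2 with at least 20 reads, -16.3 with 250 bp trimmed at each end, and, in alternatives chosen after seeing the data, -34.9 in the first 500 bp only and -16.3 beyond them. For short elements in KO cells it was -34.3 with at least 20 reads, and -31.7 both after trimming and beyond the first 500 bp. For long elements in KO cells it was -26.7 with at least 20 reads, -19.1 after trimming, -37.4 in the first 500 bp and -19.3 beyond them. The KO minus WT difference of the changes at short elements turned positive, to 11.8 with at least 20 reads (17 sites) and to 11.6 after trimming or beyond the first 500 bp (11 sites of 5 elements), and was -3.11 with reads pooled. At long elements it was -5.86 with at least 10 reads and -10.0 with at least 20. Pooling and counting each element once used the same sites and the other settings above fewer, and the cause was not tested. Without a test, the loss calls were 216 of 402 sites in WT, where 38% of all sites fell as far. In KO cells they were 152 of 245, beside 35.4% of all sites. With a fall of at least 30 points they were 82 in WT, and the share over all sites was not computed. Precision was limited by depth, with a median of 17 reads a site in KO 2i, and by the few covered elements. No paired analysis was possible because each condition holds 1 library.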

Other observations

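On the X chromosome, 33 ETn sites of 7 elements went from 96.6% to 70.4% in WT, and 19 sites of 5 elements went from 91.3% to 78.1% in KO cells. The autosomal elements went from 90.5% to 65.7% and from 84.5% to 52.7%. The difference between X and autosomes was not tested. A short form A element at chr17:14231602-14236692 resembled the one in 2310016D23Rik in KO serum, with 85.2% in WT serum, 2.00% in WT 2i, 21.1% in KO serum and 0% in KO 2i as means over 4 sites, and was chosen after its values were seen.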
